A study of Mus musculus with 27 samples.

Results

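The comparison asked whether deleting *Hgfac* acts differently on liver RNA under 2 diets, and took the genotype difference on one diet minus that on the other, which is the same number as the diet response of HGFAC-KO mice minus that of their littermate controls. It needs all 4 groups of the series, and so its members were all 27 libraries of the 27 in the series. On chow there were 7 controls and 6 HGFAC-KO mice, and on the high-fat/high-sucrose (HF/HS) diet 7 of each genotype. All were male C57BL/6J mice, 8 weeks old when the diets began, and the study took liver after some weeks of feeding. The whole-body knockout was made by CRISPR and lacks part of exon 1 and exon 2 of *Hgfac*, so that the rest of the transcript can still be made and counted.

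HGFAC, or HGF activator, is a serine protease that hepatocytes secrete as an inactive precursor. Once active, it cleaves hepatocyte growth factor (HGF) to the form that binds the receptor MET, a signal known for hepatocyte proliferation and survival. In liver a diet rich in sugar activates the transcription factor ChREBP, and *Hgfac* is one of its targets, so the question here is whether the diet changes what the loss of *Hgfac* does. A positive difference below means that the level moved upward with HF/HS more, or downward less, in HGFAC-KO mice than in controls, and a negative one the opposite.

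Total counts per library ran from 36056177 to 57298657. The level of *Hgfac* (ENSMUSG00000029102, chromosome 5, 35041509 to 35048461 of GRCm38) ran from 183 to 219 CPM (median 201) in chow-fed controls and from 65.4 to 84.5 CPM (median 76.7) in chow-fed HGFAC-KO mice, and from 247 to 296 CPM (median 273) and 81.8 to 101 CPM (median 89.2) on HF/HS. No HGFAC-KO mouse reached the lowest control of its diet, as the labels require. Levels are CPM, the counts of a gene scaled to a common library size after TMM normalization, which corrects library totals for composition. The hepatocyte markers *Alb*, *Ttr*, *Apoa1*, *Ahsg* and *Serpina1a* summed to between 73930.4 and 115445 CPM per mouse. Their sums had medians of 79144 (controls) and 91816 CPM (HGFAC-KO) on chow, and of 80538 and 103150.0 CPM on HF/HS, with 5 of 6 and 6 of 7 HGFAC-KO mice above all controls of their diet. Most of each sum was *Alb*. Scaled by library totals only, its medians were 60218 (controls) and 68714 CPM (HGFAC-KO) on chow and 54836 and 80165 CPM on HF/HS. *Ahsg* was also higher in HGFAC-KO mice on both diets by median. The others were not higher on both, with *Ttr* at 4140 and 3620 on chow and 3912 and 4152 on HF/HS. *Apoa1* was at 9037 and 11032, then 11659 and 10673, and *Serpina1a* at 1155 and 1188, then 1189 and 1169. The part of these markers in the results below was not tested. The 3 adipocyte and 2 muscle markers each summed to under 1 CPM per mouse. For 2 libraries, KO chow replicate 1 and control HF/HS replicate 7, the root mean square difference from the other mice of the group was 0.413 on the log2 scale, against 0.180 to 0.294 in the other 25. KO chow replicate 4 and control HF/HS replicate 7 also had the highest levels of acute phase genes. Gene lists whose values moved most without these mice are given with and without them.

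No gene differed in its diet response between the genotypes by the test across all genes. Of 13932 genes with enough counts, 0 were higher and 0 lower at an adjusted p under 0.05 (quasi-likelihood test of edgeR, adjusted after Benjamini and Hochberg, 0% of the genes tested in either direction), and the lowest adjusted p was 0.980. At an unadjusted p under 0.05 there were 243 genes with a positive difference (1.74%) and 263 with a negative one (1.89%). Of these, 5 were under 0.001. Without control HF/HS replicate 7 the counts were 395 and 338, and they were, with KO HF/HS replicate 5 left out instead, 422 and 526. DESeq2 and limma voom also called 0 genes, DESeq2 with a lowest adjusted p of 0.0691, for *Apoa1*. The genes with p-values under 0.05 below are therefore described by their values and are not calls.

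The precision limits what could have been seen. The standard error of the difference had a median of 0.14 on the log2 scale over all genes and 0.12 over the 11841 genes with a mean of at least 1 CPM. The 95% interval lay within 1 log2 unit of 0, meaning a 2-fold difference between the diet responses, for 87.5% of all genes and 95.9% of those at 1 CPM or more. It lay within a 1.5-fold change for 69.5% of all genes. The differences themselves were centred on 0, with a median of 0.00 and quartiles of -0.09 and 0.11, and 51.3% of genes were positive.

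The comparison sets 2 genotype effects against each other. In the fit of all 27 mice, 0 genes were higher (0%) and 1 was lower (0.00718%) in HGFAC-KO mice on chow, and likewise 0 were higher (0%) and 1 lower (0.00718%) on HF/HS. The gene was *Hgfac* both times. At an unadjusted p under 0.05 there were 377 higher (2.71%) and 386 lower genes (2.77%) on chow, and 815 (5.85%) and 773 (5.55%) on HF/HS. DESeq2 called more at an adjusted p under 0.05, with 4 higher and 2 lower on chow and 26 higher and 34 lower on HF/HS. Across the 13932 genes the log2 differences between genotypes on chow and on HF/HS, which come from different mice, had a Pearson correlation of 0.218 and a Spearman correlation of 0.248. Genes are not independent, and the correlation is given as a description without a test. Of the 506 genes with an unadjusted interaction p under 0.05, 219 were lower on chow and higher on HF/HS in HGFAC-KO mice, 241 were higher on chow and lower on HF/HS, 27 were higher on both and 19 lower on both. Over all genes these numbers were 2911, 2844, 3983 and 4194. Choosing genes by the size of a difference between 2 effects favors opposite signs, so nothing is read from that split.

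**Figure D1:**
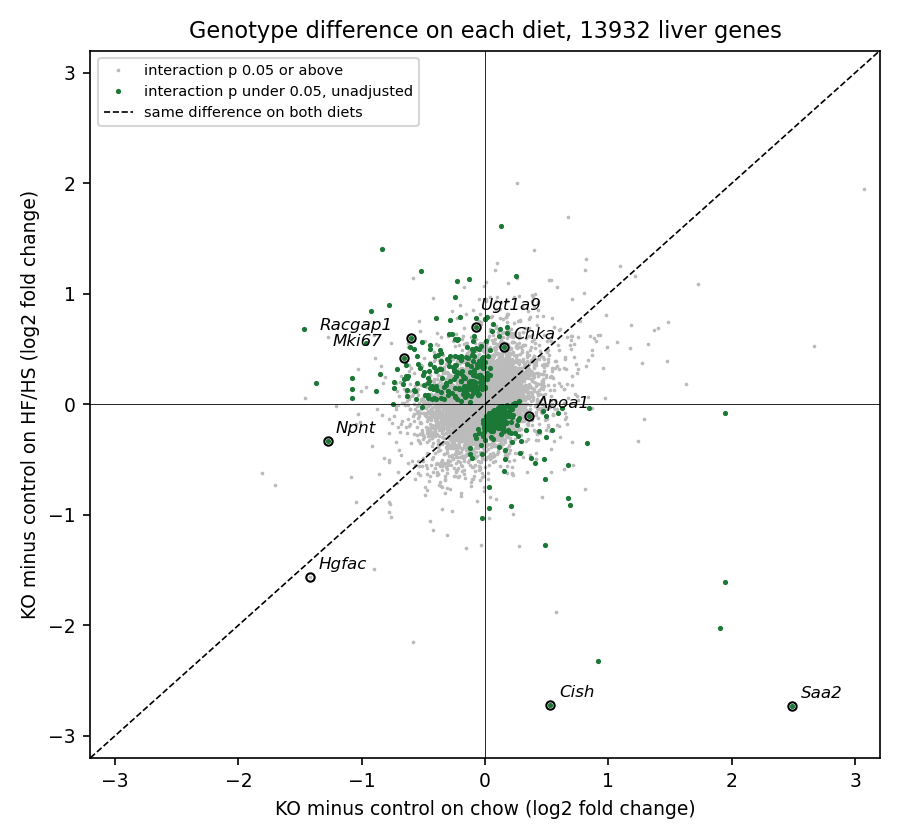
Log2 fold change between HGFAC-KO and control mice on chow (x axis) and on HF/HS (y axis), 1 point per gene for 13932 genes, with 1 gene outside the axes. The 506 genes with an unadjusted interaction p under 0.05 (green) lie away from the dashed line of equal differences, *Hgfac* lies near that line at -1.42 and -1.56, and *Saa2* and *Cish* lie far below it.

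The diet itself moved many genes in both genotypes. In controls 675 genes were higher (4.84%) and 743 lower (5.33%) on HF/HS than on chow, and in HGFAC-KO mice 588 were higher (4.22%) and 575 lower (4.13%). For the mean of the 2 diet effects, which does not use their difference, 1690 genes were higher (12.1%) and 1585 lower (11.4%). Of the 1690 higher genes the response was larger in HGFAC-KO mice for 887 and smaller for 803, with median log2 responses of 0.27 in controls and 0.30 in HGFAC-KO mice. Of the 1585 lower genes it was larger for 741 and smaller for 844, with medians of -0.29 and -0.25. Opposite signs in the 2 genotypes were found for 3 and 1 of these genes, though choosing genes by the mean effect makes such cases rare. Unadjusted interaction p-values under 0.05 were found for 67 of the higher genes (34 positive, 2.01%, and 33 negative, 1.95%) and 91 of the lower genes (58 positive, 3.66%, and 33 negative, 2.08%), against 1.74% and 1.89% of all genes. Diet responses of the 2 genotypes, which come from different mice, had a Pearson correlation of 0.720 over all 13932 genes and 0.907 over the 3275 diet-responsive ones. Choosing those 3275 by the mean of the same 2 responses favors agreement, so the second value is not read as a result.

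The genes with the largest mean diet effects, which fall outside the rule for named genes and were picked after their values were seen, show how the pairs of responses compared. *Cpne5* had a log2 response of 2.65 in controls and 2.46 in HGFAC-KO mice, and *Rgs16*, a regulator of G protein signaling in liver, had 2.42 in controls and 2.20 in HGFAC-KO mice. *Moxd1* averaged 3.51 CPM on chow and 43.9 CPM on HF/HS among controls, against 5.54 and 29.3 CPM among HGFAC-KO mice, with an interaction of -1.22 and an SE of 1.76. Among the genes that were lower on HF/HS, *Cyp2b10*, the classic target of the xenobiotic receptor CAR, went from 7.00 to 0.0365 CPM and from 8.46 to 0.0131 CPM. *Cyp3a41b*, a cytochrome P450 with near-identical paralogs that share reads, went from 2.53 to 0.0657 CPM and from 2.56 to 0.143 CPM. *Cyp2a4* had responses of -3.49 in controls and -5.63 in HGFAC-KO mice, *Sprr1a* 3.10 in controls and 1.65 in HGFAC-KO mice and *Wif1* 3.21 in controls and 3.29 in HGFAC-KO mice. *Cyp3a41a* had -4.58 in controls and -3.87 in HGFAC-KO mice and *Gm3776* -3.86 in controls and -3.49 in HGFAC-KO mice. The interaction p of these 10 genes was between 0.161 and 0.93, and their standard errors of up to 2.07 leave room for large differences.

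**Figure D2:**
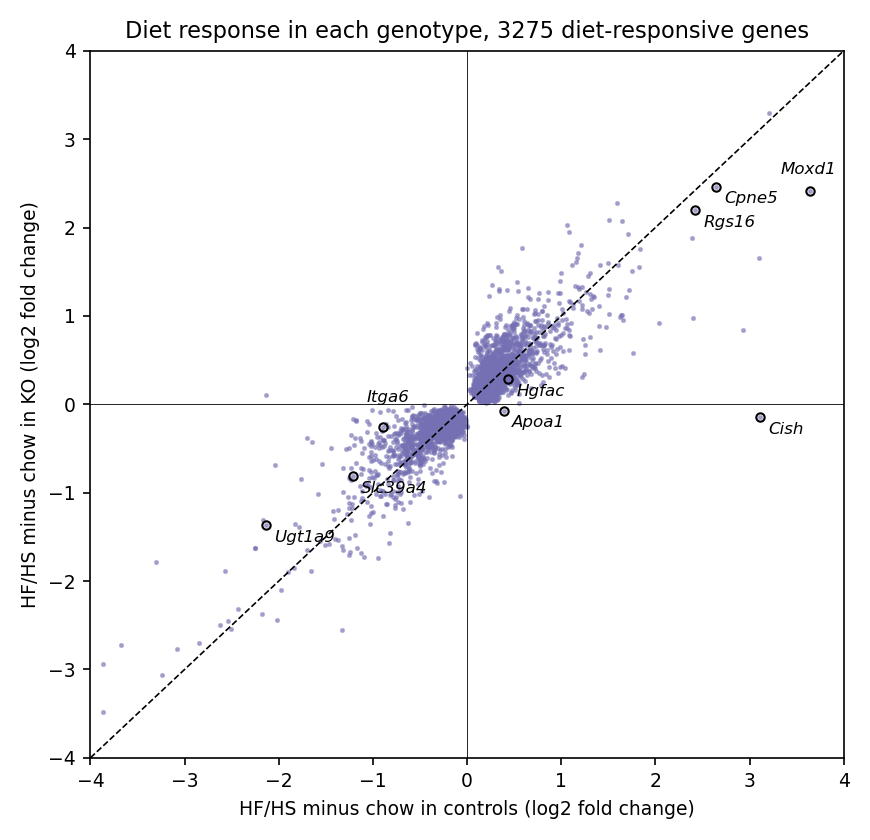
Log2 fold change between HF/HS and chow in controls (x axis) and in HGFAC-KO mice (y axis) for the 3275 genes past the threshold for the mean diet effect, with 4 genes outside the axes. Most points lie along the dashed line of equal responses (Pearson correlation 0.907), and *Cish*, at 3.11 in controls and -0.15 in HGFAC-KO mice, lies far from it.

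The diet raised *Hgfac* in both genotypes, by 0.43 on the log2 scale in controls (adjusted p = 3.06e-05 from edgeR) and by 0.29 in HGFAC-KO mice (adjusted p = 0.00667 from edgeR), where the counted reads come from what remains of the transcript. The difference was -0.14 (SE 0.09, 95% interval -0.33 to 0.04), with unadjusted p = 0.122 and adjusted p = 0.984 from edgeR. The exact permutation test used for single genes assigns the genotype labels anew within each diet in all 5889312 ways, and takes as its null that genotype has no effect on either diet. It was computed for 58 named genes, many of which were chosen for a small p in the same mice, so that for those it describes the spread between mice and is not an independent test. For *Hgfac*, which differs on both diets, that null does not apply, and its p of 0.823 is not informative. For the other genes too, the permutation p refers to no effect on either diet, which is not the same null as no interaction.

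*Chka* encodes choline kinase alpha, which starts phosphatidylcholine synthesis from choline. Its level ran from 58.7 to 96.1 CPM (median 72.01) in chow-fed controls and from 58.8 to 118 CPM (median 77.3) in chow-fed HGFAC-KO mice, and from 51.7 to 60.5 CPM (median 55.8) and 75.3 to 89.9 CPM (median 80.7) on HF/HS. On HF/HS the genotypes did not overlap, since the lowest HGFAC-KO mouse lay above the highest control, whereas on chow the ranges overlapped. The interaction was 0.36 (SE 0.16, 95% interval 0.04 to 0.68), with unadjusted p = 0.0289 and adjusted p = 0.984 from edgeR and a two-sided exact permutation p of 0.0812. HF/HS lowered *Chka* in controls, where it fell by 0.36 on the log2 scale (adjusted p = 0.0291 from edgeR), and in HGFAC-KO mice the log2 response was -0.01. KO chow replicate 1 was the highest mouse of all at 118 CPM, and without it the difference was 0.50. Without KO chow replicate 4 and control HF/HS replicate 7 it was 0.27.

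*Pparg*, the nuclear receptor of fat storage, ran from 5.61 to 7.33 CPM (median 6.31) in chow-fed controls and from 3.61 to 5.66 CPM (median 4.40) in chow-fed HGFAC-KO mice, and from 3.24 to 7.55 CPM (median 5.22) and 2.73 to 5.09 CPM (median 4.03) on HF/HS. The genotype differences were -0.47 on chow and -0.44 on HF/HS, so that the interaction was 0.03 (SE 0.24, 95% interval -0.46 to 0.52), with unadjusted p = 0.911 and adjusted p = 0.996 from edgeR. The list of PPARG targets and lipid droplet genes held 29 tested genes, 17 with a positive and 12 with a negative difference, and its median was 0.05, against 0.00 over all genes tested. Its median genotype differences were -0.08 on chow and 0.00 on HF/HS. The member with the smallest p was *Cideb*, a lipid droplet protein that loads lipid onto very-low-density lipoprotein, at -0.19 (SE 0.09, unadjusted p = 0.0319), and *Aqp7*, a glycerol channel, was the other with a p under 0.05, at -1.23 (SE 0.56, unadjusted p = 0.0385) and a mean of under 0.5 CPM in each group. These 2 of 29 (6.90%) stand beside 1.89% of all genes, and with KO chow replicate 1 and control HF/HS replicate 7 left out 4 of 29 (13.8%, against 2.72% of all genes in that fit) were negative with a p under 0.05. Leaving out single mice moved the list's median from -0.01 to 0.09, the lowest without KO HF/HS replicate 2.

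*Apoa1*, the main protein of high-density lipoprotein (chromosome 9, 46228580 to 46230466 of GRCm38), had the smallest interaction p of all genes tested. Its level ran from 8248 to 9531 CPM (median 9139) in chow-fed controls and from 10242 to 13350.1 CPM (median 11359) in chow-fed HGFAC-KO mice, and from 11164 to 13047 CPM (median 11659.8) and 8771 to 12959.6 CPM (median 10622) on HF/HS. On chow all 6 HGFAC-KO mice lay above all 7 controls, and on HF/HS the genotypes overlapped, with 5 of 7 HGFAC-KO mice below all controls and the other 2 within their range. HF/HS raised *Apoa1* in controls by 0.39 on the log2 scale (adjusted p = 0.000589 from edgeR), while the log2 response in HGFAC-KO mice was -0.07 (adjusted p = 0.58 from edgeR). The interaction was -0.46 (SE 0.10, 95% interval -0.67 to -0.25), with unadjusted p = 0.000116 and adjusted p = 0.98 from edgeR and a two-sided exact permutation p of 0.00024. It ran from -0.51 to -0.41 over 42 other settings, and its lowest adjusted p there was 0.0691, with DESeq2.

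Among the other 11 genes with the smallest p and a negative difference, the HGFAC-KO level was mostly somewhat higher on chow and lower on HF/HS. Choosing genes by the interaction favors such opposite signs, so the pattern is a description only. *Vamp2*, a vesicle fusion protein, ran from 22.6 to 24.8 CPM (median 24.2) in chow-fed controls and from 22.4 to 31.1 CPM (median 27.4) in chow-fed HGFAC-KO mice, and from 25.1 to 28.9 CPM (median 26.05) and 21.2 to 29.2 CPM (median 25.7) on HF/HS, and its interaction was -0.31 (SE 0.09, unadjusted p = 0.00324). *Ogfod3* had group means of 7.04 to 7.90 CPM on chow and 7.47 to 6.70 CPM on HF/HS (controls to HGFAC-KO mice), with an interaction of -0.32 (SE 0.10, unadjusted p = 0.00304). *Nasp*, a histone chaperone, went from 11.96 to 12.5 CPM on chow and 13.1 to 11.1 CPM on HF/HS, at -0.30 (SE 0.09, unadjusted p = 0.00289). *Isoc2a* went from 135 to 145 CPM on chow and 150.3 to 132 CPM on HF/HS, and its interaction was -0.29 (SE 0.08, unadjusted p = 0.00182). *Camk2b*, a subunit of calmodulin-dependent kinase II, went from 7.91 to 11.04 CPM on chow and 12.3 to 8.73 CPM on HF/HS, at -0.98 (SE 0.31, unadjusted p = 0.00443). The differences of *Hypk*, a partner of the N-terminal acetyltransferase NatA, *Fkbp2*, a prolyl isomerase of the endoplasmic reticulum, *Agbl5*, a tubulin deglutamylase, and *Pex11g*, a peroxisome division factor, lay between -0.29 and -0.24. Two-sided exact permutation p-values of these 9 genes lay between 0.00162 and 0.00901. Outside *Apoa1* on chow, these genes overlapped between genotypes on both diets.

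*Cish*, a feedback inhibitor that growth hormone and STAT5 induce, had a difference that rested on a few mice. It ran from 1.34 to 2.58 CPM (median 2.08) in chow-fed controls and from 1.18 to 5.71 CPM (median 2.53) in chow-fed HGFAC-KO mice, and from 1.33 to 57.1 CPM (median 3.19) and 1.40 to 5.22 CPM (median 2.13) on HF/HS. Of the 7 HF/HS-fed controls, replicates 2 and 3 were at 44.1 and 57.1 CPM and replicate 7 at 8.92 CPM, while the other 4 lay within the range of the other groups. The interaction was -3.25 (SE 1.02, 95% interval -5.36 to -1.15) with an unadjusted p of 0.00392 from edgeR, but the two-sided exact permutation p was 0.106. With sample quality weights in limma voom it was -1.40. In the list of growth hormone, STAT5 and sex-biased genes it was the 1 member of 31 with a p under 0.05 (3.23%, against 1.89% of all genes), and the list's median was -0.12, or -0.05 without control HF/HS replicate 7.

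Genes with a positive difference included several whose fall on HF/HS was smaller in HGFAC-KO mice. *Itga6*, the alpha 6 integrin that binds laminin, ran from 3.22 to 4.58 CPM (median 3.66) in chow-fed controls and from 2.68 to 3.92 CPM (median 3.33) in chow-fed HGFAC-KO mice, and from 1.52 to 2.58 CPM (median 1.94) and 1.92 to 3.84 CPM (median 2.99) on HF/HS. It fell on HF/HS by 0.89 on the log2 scale in controls (adjusted p = 6.77e-05 from edgeR), the response in HGFAC-KO mice was -0.26 (adjusted p = 0.267 from edgeR), and the interaction was 0.64 (SE 0.20, 95% interval 0.23 to 1.04). *Zfp14*, a zinc finger protein, had responses of -0.76 and -0.13 with an interaction of 0.62 (SE 0.19, unadjusted p = 0.00327), and *Castor1*, the arginine sensor of mTORC1, had -1.04 and -0.44 with an interaction of 0.59 (SE 0.20, unadjusted p = 0.00663). For these 3 genes the genotypes overlapped on chow, and on HF/HS at least 6 of 7 HGFAC-KO mice lay above the control mean. Two-sided exact permutation p-values were 0.00441, 0.00438 and 0.00928 in that order.

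The other genes with the smallest p and a positive difference had lower means in HGFAC-KO mice than in controls on chow and higher ones on HF/HS. Choosing them by the interaction favors opposite signs here too, and nothing is read from that. *Ckb*, the brain-type creatine kinase, went from 4.38 to 3.82 CPM on chow and 4.37 to 5.07 CPM on HF/HS (controls to HGFAC-KO mice) and had responses of 0.00 in controls and 0.41 in HGFAC-KO mice, with an interaction of 0.41 (SE 0.13, unadjusted p = 0.00327). *Dock10*, a guanine nucleotide exchange factor, had responses of 0.09 and 0.69 with an interaction of 0.60 (SE 0.20, unadjusted p = 0.00687). The interactions of *Fem1c*, a substrate receptor of a ubiquitin ligase, *Zfhx2*, a homeobox factor, *Ehbp1l1* and *Kcnj10*, a potassium channel, were 0.33, 0.39, 0.42 and 0.77. *Cyp2c39*, a cytochrome P450 with similar paralogs, had a mean under 3 CPM in each group and an interaction of 0.94 (SE 0.31, unadjusted p = 0.0056). The adjusted p of each of the genes named for the smallest p was 0.984 or 0.98 from edgeR.

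**Figure D3:**
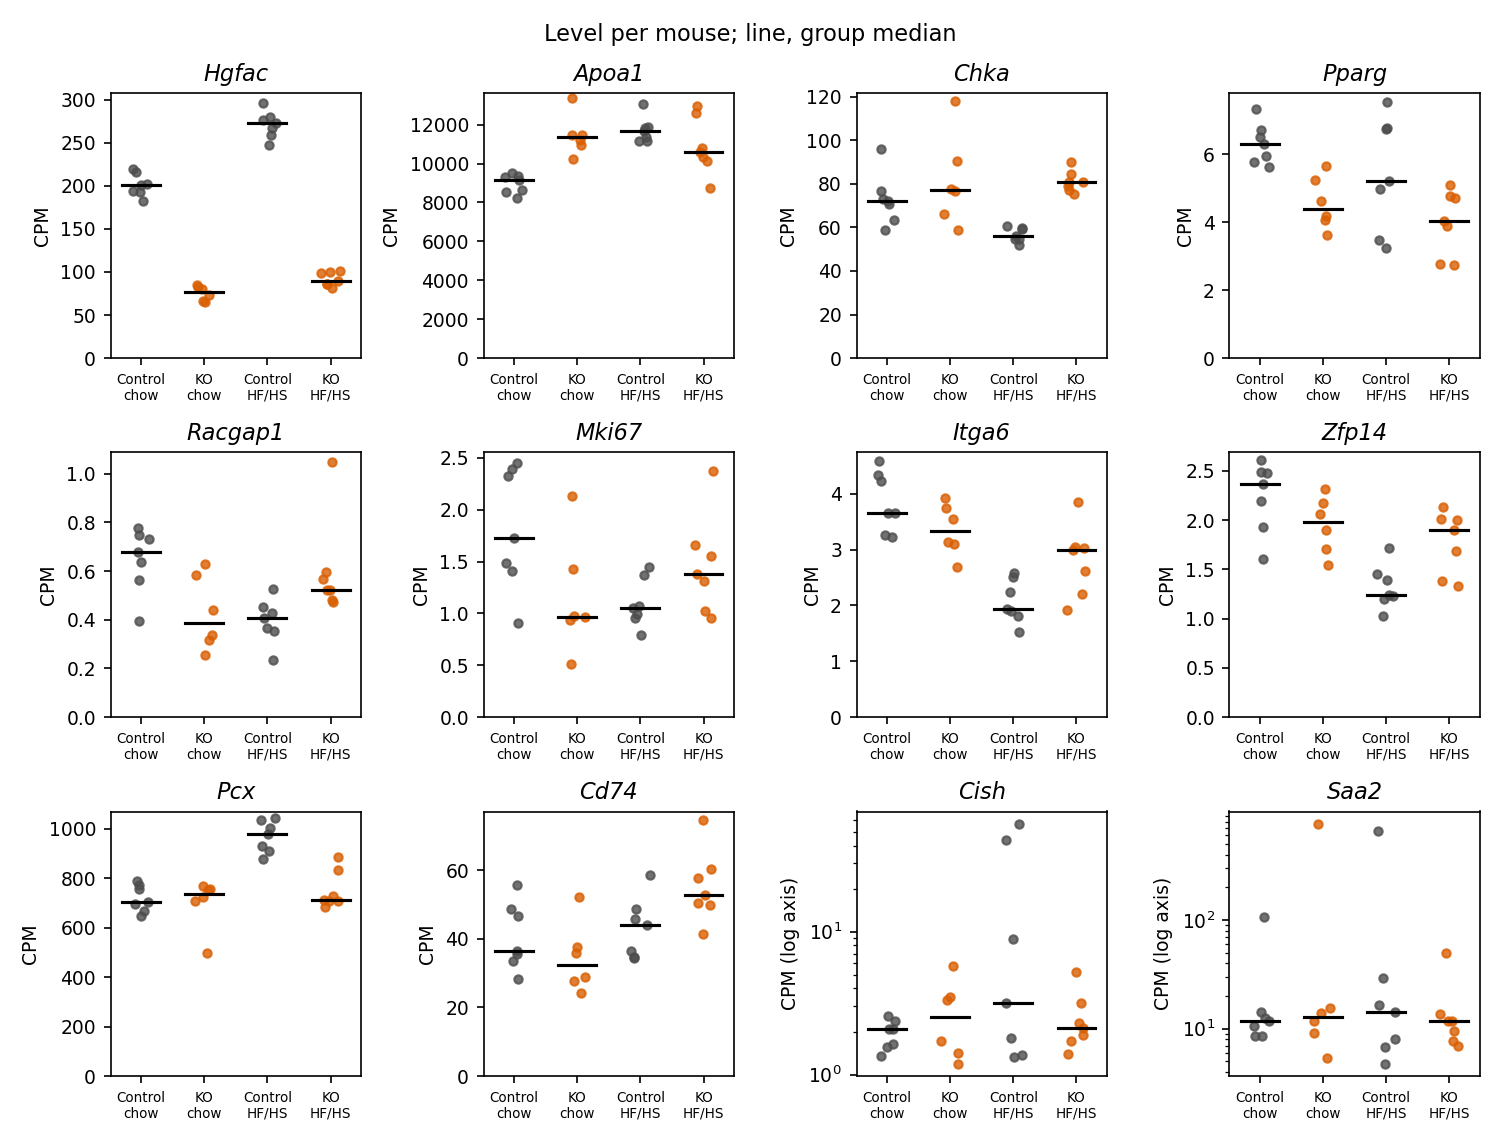
Level of 12 genes in each mouse (CPM, 1 point per mouse, black line at the group median), for control (grey) and HGFAC-KO mice (orange) on chow and on HF/HS, with a log axis for *Cish* and *Saa2*. *Apoa1* separates the genotypes on chow and *Chka* on HF/HS, and the highest *Cish* and *Saa2* levels belong to 1 to 3 mice.

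Genes were then described in 38 lists written by hand, with 1208 different genes tested. No list member passed the adjusted threshold. The median difference was positive for 12 lists and negative for 26, and lay within 0.1 of 0 for 27 of them, beside a median of 0.00 over all 13932 genes. Lists with the highest medians were the Kupffer cell and leukocyte markers (0.33), the cell cycle (0.30) and the stellate cell and extracellular matrix genes (0.18). The lowest medians belonged to the acute phase (-0.20), cholesterol synthesis (-0.18), the nuclear-encoded subunits of oxidative phosphorylation (-0.15) and the cytosolic ribosome (-0.13). Members of a list move together from mouse to mouse, so counts of members in one direction are descriptions, and no p is given for a list.

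**Figure D4:**
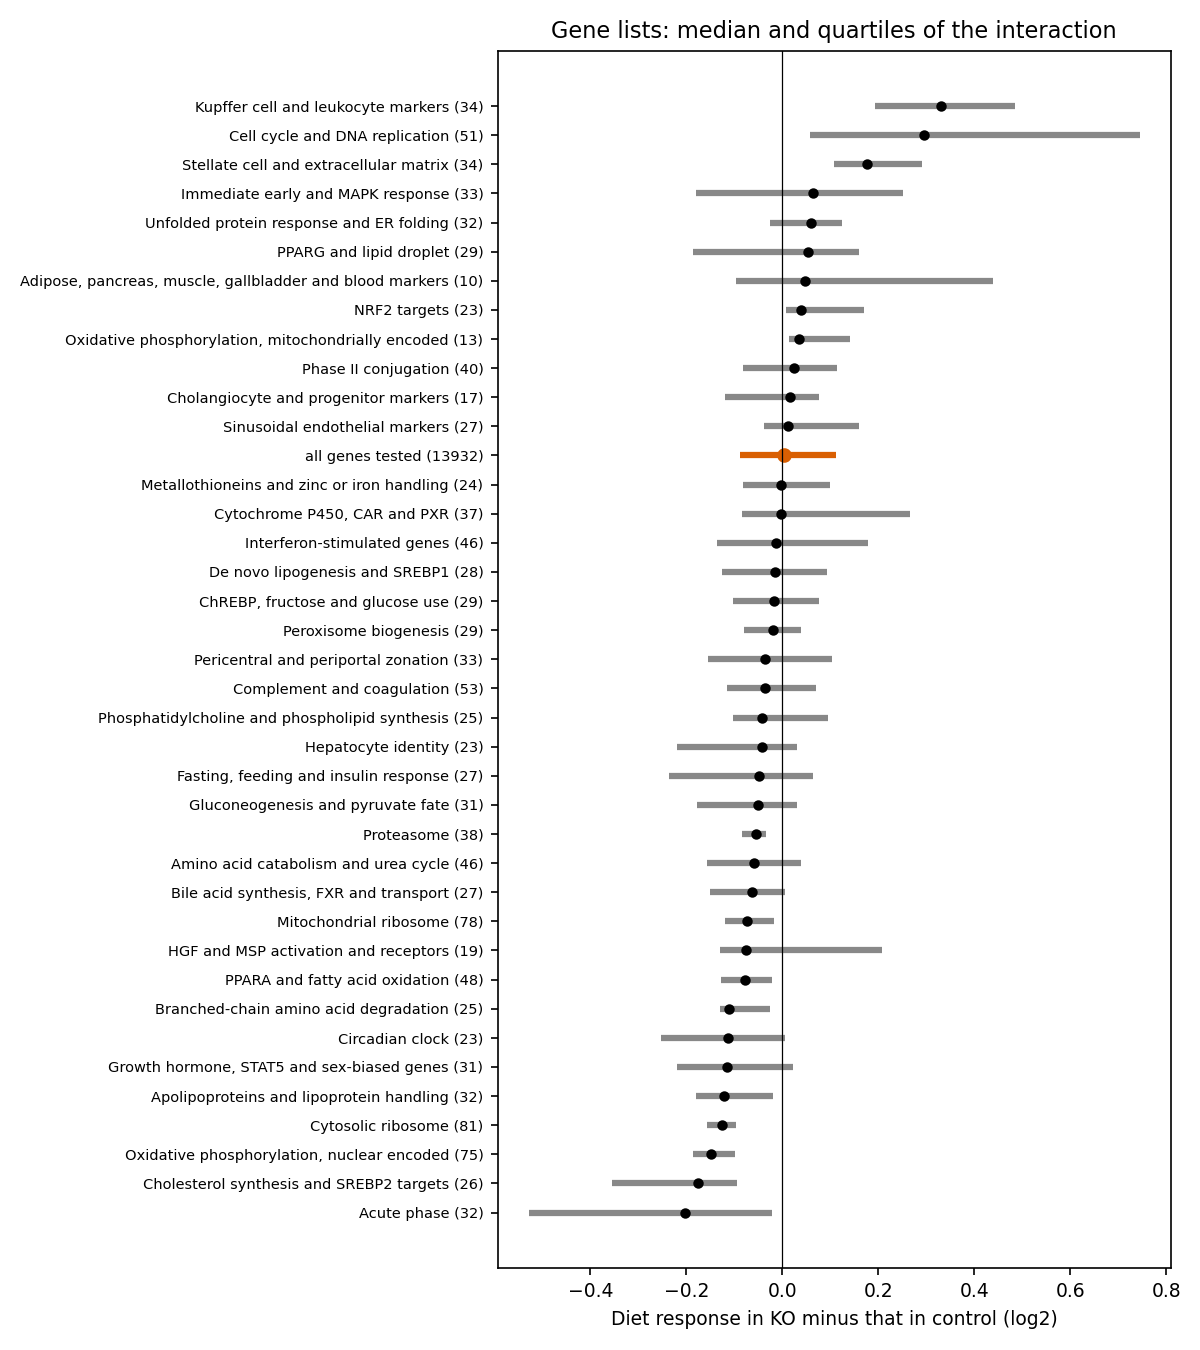
Median (dot) and quartiles (bar) of the interaction, the diet response in HGFAC-KO mice minus that in controls on the log2 scale, for the tested members of 38 gene lists, with the number of genes in brackets. All 13932 genes (orange) are centred on 0, the Kupffer cell and leukocyte, cell cycle and stellate lists lie highest, and the acute phase and cholesterol synthesis lists lie lowest.

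Genes of the cell cycle and DNA replication, which are transcribed in dividing cells, had a positive difference for 42 of 51 members, and 10 of the 51 (19.6%, against 1.74% of all genes) had an unadjusted p under 0.05 in that direction and 0 in the other. The median genotype difference was -0.26 on chow and 0.06 on HF/HS, and the median diet response was -0.28 in controls and 0.07 in HGFAC-KO mice. *Racgap1*, needed for cytokinesis, ran from 0.394 to 0.776 CPM (median 0.679) in chow-fed controls and from 0.255 to 0.631 CPM (median 0.388) in chow-fed HGFAC-KO mice, and from 0.233 to 0.528 CPM (median 0.408) and 0.473 to 1.05 CPM (median 0.522) on HF/HS, with an interaction of 1.20 (SE 0.31, 95% interval 0.56 to 1.85), unadjusted p = 0.000704 and adjusted p = 0.984 from edgeR and a two-sided exact permutation p of 0.000431. Its chow levels were lower in most HGFAC-KO mice and its HF/HS levels higher, and the genotypes overlapped on both diets. *Mki67*, the gene of the proliferation antigen Ki-67, ran from 0.910 to 2.46 CPM (median 1.73) in chow-fed controls and from 0.511 to 2.13 CPM (median 0.969) in chow-fed HGFAC-KO mice, and from 0.788 to 1.45 CPM (median 1.05) and 0.959 to 2.37 CPM (median 1.38) on HF/HS, with an interaction of 1.08 (SE 0.36, 95% interval 0.34 to 1.82). The other 8 with a p under 0.05 were *Kif23*, *Foxm1*, *Aspm*, *Rrm1*, *Cenpf*, *Bub1b*, *Tpx2* and *Cdc20*, between 0.25 for *Rrm1*, a ribonucleotide reductase subunit, and 1.32 for *Cenpf*, a kinetochore protein. Apart from *Rrm1*, all of them had mean levels under 2 CPM in each group, where counting error is large.

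To show single mice, each list was given a score per mouse, in which the log2 CPM of its members was averaged and centred over the 27 mice. For the cell cycle it ran from 0.03 to 0.41 (median 0.16) in chow-fed controls and from -0.31 to 0.38 (median -0.19) in chow-fed HGFAC-KO mice, and from -0.21 to 0.06 (median -0.12) and -0.25 to 0.41 (median -0.04) on HF/HS. Chow-fed HGFAC-KO mice lay below the control mean in 5 of 6 cases, KO chow replicate 4 being the exception at 0.38. On HF/HS 4 of 7 lay above the control mean, and KO HF/HS replicate 2 was far above the rest of its group at 0.41. Without that mouse the list's median difference was 0.18, and without KO chow replicate 4 it was 0.36. Without KO chow replicate 4 and control HF/HS replicate 7, 43 of 51 members were positive, 18 of them with a p under 0.05 (35.3%, against 3.21% of all genes in that fit). With only genes that had at least 10 counts in every library, which removes many members, the median was 0.13.

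Markers of Kupffer cells, the resident macrophages of the liver, and of leukocytes had a positive difference for 30 of 34 members, 2 of them (5.88%, against 1.74% of all genes) with an unadjusted p under 0.05. The median genotype difference was -0.21 on chow and 0.07 on HF/HS, and the median diet response 0.19 in controls and 0.56 in HGFAC-KO mice. *Cd74*, the invariant chain of MHC class II, ran from 28.3 to 55.8 CPM (median 36.6) in chow-fed controls and from 24.1 to 52.1 CPM (median 32.3) in chow-fed HGFAC-KO mice, and from 34.5 to 58.7 CPM (median 43.9) and 41.4 to 74.6 CPM (median 52.8) on HF/HS. Its interaction was 0.60 (SE 0.24, 95% interval 0.11 to 1.09), with unadjusted p = 0.0193 and adjusted p = 0.984 from edgeR and a two-sided exact permutation p of 0.022. *Cd74* rose on HF/HS in HGFAC-KO mice by 0.68 on the log2 scale (adjusted p = 0.0152 from edgeR), and its response in controls was 0.09 (adjusted p = 0.811 from edgeR). The other was *Cd3d*, a T-cell receptor subunit at under 0.5 CPM, at 1.00 (SE 0.46, unadjusted p = 0.0401). In bulk liver, more cells of a type and more RNA per cell cannot be told apart.

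The 4 marker genes taken for Kupffer cells, *Clec4f*, *Vsig4*, *Cd5l* and *Adgre1*, summed to 91.4 to 180.3 CPM (median 137) in chow-fed controls and 92.5 to 138 CPM (median 108) in chow-fed HGFAC-KO mice, and to 124 to 251 CPM (median 156) and 119.7 to 208 CPM (median 166) on HF/HS. All 4 had a positive difference, between 0.19 for *Clec4f* and 0.56 for *Adgre1*, and 0 of 4 had a p under 0.05. The 4 leukocyte markers, *Ptprc*, *Cd3e*, *Cd79a* and *Ms4a1*, were all positive too and summed to 5.76 to 11.7 CPM (median 9.98), 4.92 to 8.49 CPM (median 7.36), 7.23 to 14.04 CPM (median 9.42) and 8.21 to 12.7 CPM (median 10.8) in the same order of groups. The groups overlapped for both sums. By list score, 5 of 6 chow-fed HGFAC-KO mice lay below the control mean and 6 of 7 HF/HS-fed ones above it. Leaving out single mice moved the list's median from 0.26 to 0.44. Without KO chow replicate 1 and control HF/HS replicate 7, 34 of 34 members were positive, 11 with a p under 0.05 (32.4%, against 3.30% of all genes in that fit), and the median was 0.45. Within groups, the score of this list and that of the cell cycle had a Pearson correlation of 0.338 over the 27 mice. The acute phase score had one of 0.564 with the cell cycle and 0.394 with the Kupffer cell and leukocyte list. These are descriptions, and the part of one list in another was not tested.

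Genes of stellate cells, which store vitamin A and make matrix, were positive for 29 of 34 members with a median of 0.18. The member with the smallest p was *Npnt*, the matrix protein nephronectin, at 0.95 (SE 0.39, unadjusted p = 0.023). *Npnt* ran from 0.664 to 1.57 CPM (median 0.964) in chow-fed controls and from 0.250 to 0.732 CPM (median 0.427) in chow-fed HGFAC-KO mice, and from 0.168 to 0.700 CPM (median 0.391) and 0.183 to 0.426 CPM (median 0.309) on HF/HS, so that 5 of 6 HGFAC-KO mice lay below all controls on chow, while all lay within the control range on HF/HS. Among chow-fed HGFAC-KO mice, replicates 4 and 1 had the lowest and the highest score of this list, with values of -0.69 and 0.32. Without replicate 4 the median was 0.09, and without replicate 1 it was 0.28. For sinusoidal endothelial markers the median genotype difference was -0.22 on chow and -0.16 on HF/HS, and the median interaction was 0.01, with 16 of 27 members positive and *Wnt9b*, a ligand of central vein endothelium, at 0.64 (SE 0.35, unadjusted p = 0.0736).

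**Figure D5:**
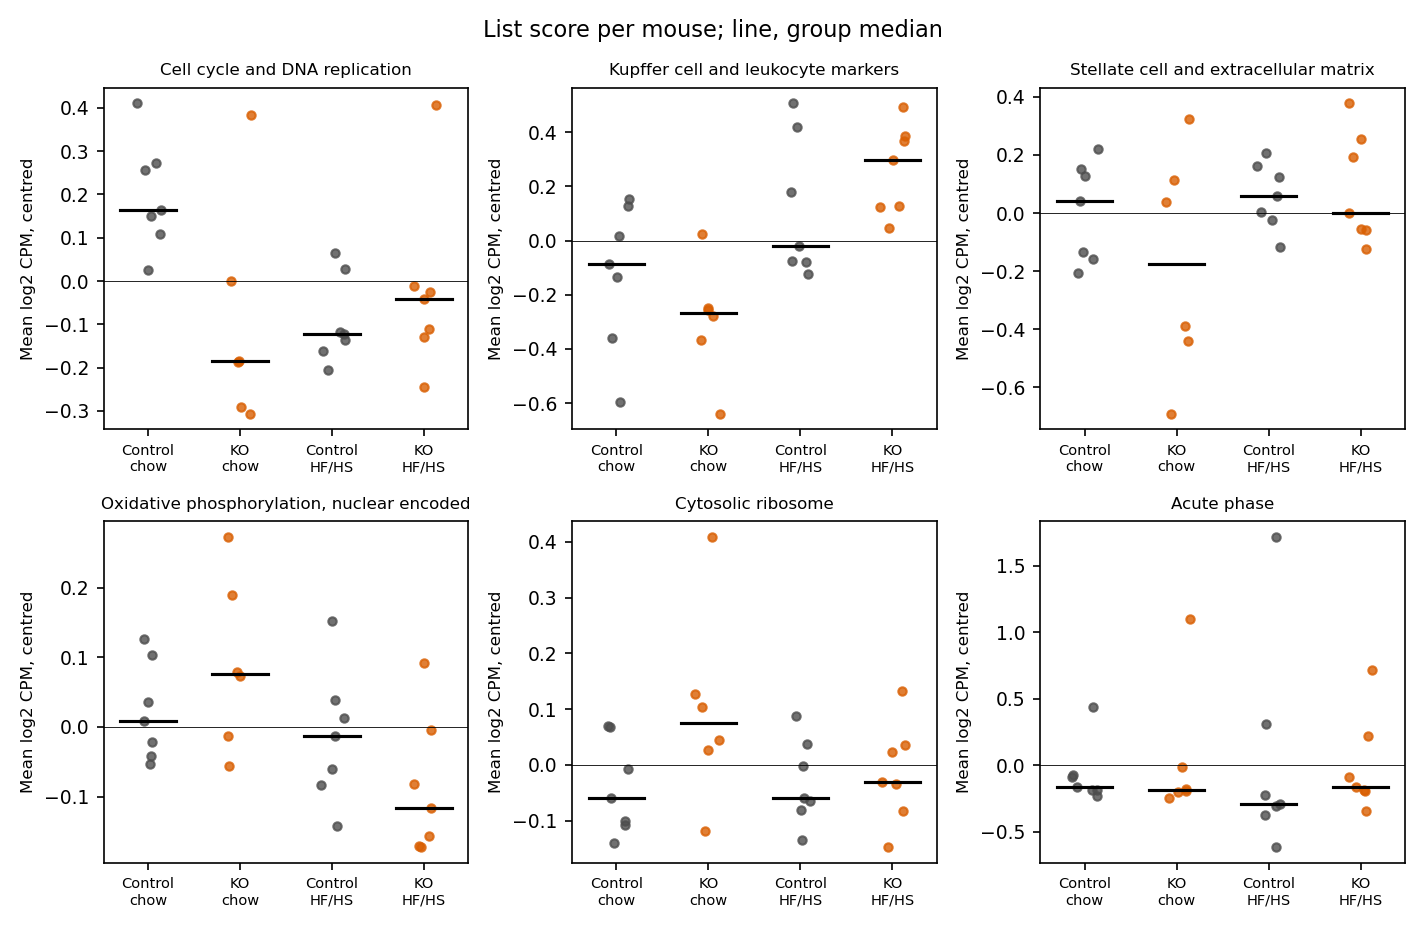
Score of 6 gene lists in each mouse (log2 CPM averaged over members and centred over the 27 mice, black line at the group median), for control (grey) and HGFAC-KO mice (orange) on both diets. For the cell cycle the median of chow-fed HGFAC-KO mice was -0.19 against 0.16 in chow-fed controls, and single mice stand far above their group for the cell cycle and the acute phase.

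The nuclear-encoded subunits of oxidative phosphorylation, the respiratory chain and ATP synthase, were the list with the most uniform direction. The difference was negative for 74 of 75 genes, and 12 (16%, against 1.89% of all genes) had an unadjusted p under 0.05. The median was -0.15, with quartiles of -0.19 and -0.10, from a median genotype difference of 0.07 on chow and -0.07 on HF/HS. By complex, the medians were -0.15 for 36 genes of complex I, -0.08 for 4 of complex II, -0.10 for 9 of complex III, -0.16 for 10 of complex IV and -0.12 for 15 of ATP synthase. *Ndufs3*, a core subunit of complex I, ran from 79.5 to 93.00 CPM (median 87.5) in chow-fed controls and from 84.7 to 98.3 CPM (median 91.7) in chow-fed HGFAC-KO mice, and from 78.5 to 93.1 CPM (median 87.1) and 73.1 to 89.9 CPM (median 77.6) on HF/HS. Its interaction was -0.23 (SE 0.07, 95% interval -0.38 to -0.07), with unadjusted p = 0.00524 and adjusted p = 0.984 from edgeR and a two-sided exact permutation p of 0.00372, and the genotypes overlapped on both diets. *Cox5b* of complex IV had -0.32 (SE 0.13, unadjusted p = 0.0208), and *Uqcrq* of complex III -0.23 (SE 0.11, unadjusted p = 0.0443). The 13 subunits encoded in mitochondrial DNA did not share the direction, since 11 were positive, with a median of 0.03. The one with the smallest p there, *mt-Atp8*, was at 120.3 and 52.7 CPM in KO HF/HS replicates 3 and 6 and between 17.1 and 28.7 CPM in the other 25 mice.

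Ribosomal protein genes were also mostly negative. Of 81 cytosolic ribosomal protein genes 78 were negative, 6 with a p under 0.05 (7.41%, against 1.89% of all genes), and the median was -0.13, from 0.14 on chow and 0.02 on HF/HS. *Rps27a*, which also encodes ubiquitin and has processed pseudogenes that can share its reads, ran from 57.2 to 67.1 CPM (median 58.3) in chow-fed controls and from 60.9 to 86.3 CPM (median 68.8) in chow-fed HGFAC-KO mice, and from 59.1 to 67.6 CPM (median 61.9) and 57.4 to 68.99 CPM (median 64.4) on HF/HS, with an interaction of -0.22 (SE 0.08, unadjusted p = 0.0126). Of 78 mitochondrial ribosomal protein genes 65 were negative, 7 with a p under 0.05 (8.97%), with a median of -0.07, from 0.05 on chow and -0.03 on HF/HS, and *Mrpl52* at -0.26 (SE 0.09, unadjusted p = 0.00847). Within groups, the scores of the oxidative phosphorylation and cytosolic ribosome lists had a Pearson correlation of 0.857 over the 27 mice, given as a description. KO chow replicate 1, which stands apart, was the highest of the 27 mice on both, at 0.27 and 0.41. Without it the medians were -0.10 for oxidative phosphorylation and -0.06 for the cytosolic ribosome. Without it and control HF/HS replicate 7 together, 75 of 75 and 70 of 81 genes were negative, 3 and 1 with a p under 0.05, against 2.72% of all genes in that fit.

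The acute phase genes, secreted by hepatocytes in inflammation, had the lowest median of all lists and depended on single mice. *Saa2*, serum amyloid A2, ran from 8.49 to 106 CPM (median 11.9) in chow-fed controls and from 5.43 to 772 CPM (median 12.9) in chow-fed HGFAC-KO mice, and from 4.73 to 659.7 CPM (median 14.3) and 6.97 to 49.9 CPM (median 11.7) on HF/HS, so that group medians differed little while each group had 1 mouse far above the rest. KO chow replicate 4 was at 772 CPM and control HF/HS replicate 7 at 659.7 CPM. The interaction was -5.22 (SE 1.80, 95% interval -8.94 to -1.51) with an unadjusted p of 0.00789 from edgeR and a two-sided exact permutation p of 0.434, and without these 2 mice it was 1.40. *Saa1*, *Lcn2*, *Mt2* and *Serpina3n* were the other 4 members with a p under 0.05 (in all 5 of 32, 15.6%, against 1.89% of all genes), between -3.93 and -0.68, and *Saa1* and *Saa2* are near-identical genes that can share reads. For the whole list, 25 of 32 members were negative with a median of -0.20 in all mice. Without the 2 mice 27 of 32 were positive and the median was 0.32. A p under 0.05 was then found for 5 positive members (15.6%, against 3.21% of all genes in that fit) and for 0 negative ones. The median without control HF/HS replicate 7 alone was 0.13. The core clock list, at -0.11 with 17 of 23 negative and *Ciart*, a clock repressor, at -0.89 (SE 0.52, unadjusted p = 0.1), also turned without those mice, to 0.08, and was 0.01 without KO chow replicate 4. *Ciart* was at -0.03 with both mice left out and at -0.38 with KO chow replicate 4 alone left out.

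In lipid metabolism the list medians given here lay between -0.18 and -0.08 in all mice. Apolipoproteins and lipoprotein handling genes were negative for 25 of 32 with a median of -0.12, and *Apoa1* was the 1 member with a p under 0.05 (3.1%, against 1.89% of all genes). Cholesterol synthesis genes, the targets of SREBP2, were negative for 25 of 26, although 0 had a p under 0.05. HF/HS was accompanied by a median log2 response of -0.76 in controls and -1.01 in HGFAC-KO mice, and the median difference was -0.18. That value ran from -0.31 to -0.02 with single mice left out, with -0.02 when control HF/HS replicate 4 was left out and -0.31 when KO HF/HS replicate 3 was. The smallest p in the list, 0.169, belonged to *Ggps1*, geranylgeranyl diphosphate synthase, at -0.16. Targets of PPARA and fatty acid oxidation genes had median genotype differences of -0.09 on chow and -0.16 on HF/HS, and their interaction was negative for 38 of 48 with a median of -0.08, 3 of them with a p under 0.05 (6.25%, against 1.89% of all genes). Without KO chow replicate 1 and control HF/HS replicate 7, 43 of 48 were negative, 10 with a p under 0.05 (20.8%, against 2.72% of all genes in that fit), and the median was -0.14. Leaving out KO chow replicate 4 and control HF/HS replicate 7 gave 2 of 48 (4.17%, against 2.36% in that fit) and a median of -0.09. *Eci1*, an isomerase of beta-oxidation, ran from 137 to 154 CPM (median 147) in chow-fed controls and from 129 to 153 CPM (median 138) in chow-fed HGFAC-KO mice, and from 161 to 198 CPM (median 179) and 118 to 186 CPM (median 137) on HF/HS, with an interaction of -0.23 (SE 0.10, unadjusted p = 0.0297), and *Etfa* and *Etfb*, the electron transfer flavoprotein that takes electrons from beta-oxidation, were at -0.14 and -0.18.

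Genes of carbohydrate and amino acid use included a few with lower HF/HS levels in HGFAC-KO mice. *Pcx*, pyruvate carboxylase, which feeds pyruvate into gluconeogenesis, ran from 647 to 787 CPM (median 702) in chow-fed controls and from 497 to 766 CPM (median 737) in chow-fed HGFAC-KO mice, and from 875 to 1042 CPM (median 977) and 683 to 887 CPM (median 709.5) on HF/HS. *Pcx* rose on HF/HS in controls by 0.43 on the log2 scale (adjusted p = 0.000577 from edgeR), against a response of 0.10 in HGFAC-KO mice (adjusted p = 0.481 from edgeR). Its interaction was -0.33 (SE 0.11, 95% interval -0.56 to -0.10), with unadjusted p = 0.00734 and adjusted p = 0.984 from edgeR and a two-sided exact permutation p of 0.0335. On HF/HS 6 of 7 HGFAC-KO mice lay below all controls, and on chow KO replicate 1 was the lowest of all at 497 CPM. Without that mouse the difference was -0.41. The gluconeogenesis list as a whole had 20 of 31 members negative and a median of -0.05, with *Gpt2*, an alanine aminotransferase, the other with a p under 0.05, at -0.20. These 2 of 31 (6.45%) stand beside 1.89% of all genes. With KO chow replicate 1 and control HF/HS replicate 7 left out, 6 of 31 had a negative difference with a p under 0.05 (19.4%, against 2.72% of all genes in that fit), and the median was -0.04. Leaving out KO chow replicate 4 and control HF/HS replicate 7 gave 1 of 31 (3.23%, against 2.36% in that fit) and a median of -0.04. Genes that degrade branched-chain amino acids were negative for 22 of 25 with a median of -0.11. Of these *Pccb*, a propionyl-CoA carboxylase subunit, *Hsd17b10*, a dehydrogenase of isoleucine breakdown, and *Acat1*, the mitochondrial thiolase, had a p under 0.05 (12% of the list, against 1.89% of all genes), at -0.24, -0.42 and -0.21. In the wider list of amino acid catabolism and the urea cycle, 30 of 46 were negative, 4 with a p under 0.05 (8.70%, against 1.89% of all genes). *Agxt2*, *Hpd*, *Gpt2* and *Fah*, of which *Hpd* and *Fah* degrade tyrosine, lay between -0.34 and -0.19.

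The lists nearest to HGFAC itself had medians close to 0, which does not make the difference of each member small. Of 19 genes of HGF and macrophage-stimulating protein activation, their receptors and adaptors, 6 were positive and 13 negative, 0 with a p under 0.05, and the median was -0.08. The differences of these genes ran from -0.23 to 0.67. The smallest p was that of *Sos1*, an exchange factor that couples receptors to RAS, at 0.26 (SE 0.14, unadjusted p = 0.0656). *Hgf* and *Met*, the ligand and receptor named here for their role and not by the rule, were at 0.38 (SE 0.30, unadjusted p = 0.215) and -0.03 (SE 0.15, unadjusted p = 0.855). *Dusp6*, a phosphatase that ERK signaling induces and a member of the immediate early list, ran from 34.02 to 51.96 CPM (median 47.8) in chow-fed controls and from 25.8 to 50.4 CPM (median 34.03) in chow-fed HGFAC-KO mice, and from 23.2 to 44.6 CPM (median 29.6) and 28.8 to 44.7 CPM (median 37.1) on HF/HS, with an interaction of 0.50 (SE 0.23, unadjusted p = 0.038). ChREBP targets and genes of fructose and glucose use had a median of -0.02, with 14 positive and 15 negative, and *Tm6sf2*, a factor in lipoprotein lipidation, at 0.32 (SE 0.18, unadjusted p = 0.0919). De novo lipogenesis had a median of -0.02, with 11 positive and 17 negative and *G6pdx*, which supplies NADPH, at 0.38 (SE 0.18, unadjusted p = 0.0424). Phosphatidylcholine and phospholipid synthesis, with *Chka* as the 1 member of 25 with a p under 0.05 (4%, against 1.74% of all genes), had a median of -0.04.

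Among genes of drug metabolism, *Ugt1a9*, a glucuronosyltransferase whose reads may be shared with other genes of the *Ugt1a* cluster, ran from 38.5 to 90.6 CPM (median 60.4) in chow-fed controls and from 50.01 to 73.5 CPM (median 57.7) in chow-fed HGFAC-KO mice, and from 11.3 to 17.9 CPM (median 14.5) and 15.1 to 43.5 CPM (median 18.2) on HF/HS. It fell on HF/HS in controls (log2 response -2.14, adjusted p = 8.30e-08) and in HGFAC-KO mice (-1.37, adjusted p = 9.04e-05, both from edgeR), and the interaction was 0.77 (SE 0.28, 95% interval 0.19 to 1.35) with a two-sided exact permutation p of 0.0314. *Slc39a4*, a zinc importer, fell in the same way, with responses of -1.21 and -0.81 (adjusted p = 2.98e-09 and 7.51e-06 from edgeR) and an interaction of 0.40 (SE 0.14, unadjusted p = 0.00937). In the phase II list *Gstk1* and *Mgst1*, glutathione transferases, were the other members with a p under 0.05, at -0.27 (SE 0.12, unadjusted p = 0.0401) and -0.16 (SE 0.07, unadjusted p = 0.0379). These 2 negative members of 40 (5%) stand beside 1.89% of all genes, and the 1 positive member (2.5%) beside 1.74%. The lists to which *Ugt1a9* and *Slc39a4* belong had medians of 0.02 and 0.00. Cytochrome P450 genes of CAR and PXR had a median of 0.00, with median responses of -0.49 in controls and -0.33 in HGFAC-KO mice. Interferon-stimulated genes went the other way with diet, at 0.66 and 0.79, and had a median interaction of -0.01, with *Gbp2*, an interferon-induced GTPase, at 0.67 (SE 0.28, unadjusted p = 0.0255) or 0.44 with control chow replicate 6 left out. Without KO chow replicate 1 and control HF/HS replicate 7 that median was 0.12.

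In all mice the remaining lists had medians between -0.06 and 0.06, close to that of all genes. Complement and coagulation had 20 of 53 members positive and a median of -0.04. *Masp2*, a protease of the lectin pathway, was at -0.14 (SE 0.07, unadjusted p = 0.0473), the 1 member with a p under 0.05 (1.89%, against 1.89% of all genes). With KO chow replicate 4 and control HF/HS replicate 7 left out, 29 were positive, 5 of them with a p under 0.05 (9.43% of the list, against 3.21% of all genes in that fit), and the median was 0.01. Bile acid synthesis, FXR targets and transport had a median of -0.06, with *Fgfr4*, the receptor through which gut-derived FGF hormones restrain bile acid synthesis, at -0.29 (SE 0.10, unadjusted p = 0.0109). The unfolded protein response (median 0.06, *Atf4* -0.18), NRF2 targets (0.04, *Osgin1* 0.61) and immediate early genes (0.06) were slightly positive. With single mice left out these medians ran from 0.004 to 0.13, from -0.002 to 0.15 and from -0.017 to 0.20. Without KO chow replicate 1 and control HF/HS replicate 7 these medians were 0.16, 0.15 and 0.20, and that of the bile acid list was -0.16. In all mice the proteasome was negative for 33 of 38 subunits with a median of -0.05 and *Psmd7* at -0.15 (SE 0.07, unadjusted p = 0.0431). Peroxisome biogenesis, hepatocyte identity, liver zonation (*Gulo* -0.32), the fasting and insulin response (*Cpt1a* -0.19) and cholangiocyte markers (*Cd24a* -0.37) had medians of -0.02, -0.04, -0.04, -0.05 and 0.02. The cholangiocyte median ran from -0.11 to 0.11 with single mice left out. Some of these differences were smaller with 1 mouse left out. *Cd24a* was at -0.22 and *Cpt1a* at -0.13 without KO chow replicate 6, *Atf4* at -0.10 without control HF/HS replicate 7, and *Osgin1* at 0.40 without control chow replicate 3. Markers of adipose tissue, pancreas, muscle, gallbladder and blood, of which 10 were tested, had a median of 0.05, with the red cell anion exchanger *Slc4a1* at 0.59 (SE 0.59, unadjusted p = 0.325) and at 0.04 without KO HF/HS replicate 1.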

How the data were processed

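Liver mRNA was sequenced from 27 male mice with a stranded kit. Per the labels, the authors mapped reads to mm10 and made counts per gene with featureCounts 1.6.3, and deposited them as 1 table of raw counts. The annotation and strand setting are not given in the sources used here. Of 27179 rows, 3886 without a gene name were dropped, which held 4.13% to 12.1% of a library's counts, and 89 symbols on several rows were summed, leaving 23191 symbols. Total counts per library, unnamed rows included, ran from 36056177 to 57298657.

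Groups came from the genotype and diet labels. The 4 groups were fitted in edgeR 4.0.16 (R 4.3.3) with TMM factors, the filterByExpr minimum count of 10 and robust quasi-likelihood tests, two-sided, with Benjamini-Hochberg adjustment over 13932 genes at a threshold of 0.05. The script was first tested on simulated data. Levels are CPM, and log2 CPM used a prior count of 2. For single genes, genotype labels were permuted exactly within each diet. The members and the gene lists were chosen with earlier results of these data known. Genes named are *Hgfac*, *Chka* and *Pparg*, the 12 with the smallest interaction p in each direction at a mean of 1 CPM or more, the member of each list with the smallest p, and the 3 diet-responsive genes with the smallest p in each direction. Other list members with an unadjusted p under 0.05, and genes named for their role, were chosen after their values were seen. A gene that the rule names is not reported here. Alternatives were DESeq2 1.42.0, limma 3.58.1 voom, other filters and scalings, a surrogate variable from sva 3.50.0, covariates, the replicate number as a block, and leaving out mice. Gene positions are from GENCODE on GRCm38.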

Additional observations from a re-analysis of the deposited data

Results flagged for a closer look

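Single mice stood apart from the rest of their group, by Dixon's criterion at its 95% level, in 20 of 260 sets (58 genes and 7 list scores in 4 groups), where chance alone gives about 1 in 20. They belonged to 10 mice. Values are in CPM, followed by the range of the other mice of the group. For *Saa2* the mouse apart was control chow replicate 3 (106 against 8.49 to 14.1), KO chow replicate 4 (772 against 5.43 to 15.4), control HF/HS replicate 7 (659.7 against 4.73 to 29.1) and KO HF/HS replicate 2 (49.9 against 6.97 to 13.6). The acute phase score set 3 of these 4 mice apart, at 0.44 against -0.23 to -0.07 for control chow replicate 3, 1.10 against -0.24 to -0.01 for KO chow replicate 4 and 1.72 against -0.61 to 0.31 for control HF/HS replicate 7. KO HF/HS replicate 2 was also high for *Racgap1* (1.05 against 0.473 to 0.597) and for the cell cycle score (0.41 against -0.25 to -0.01).

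KO chow replicate 1 was low for *Pcx* (497 against 709 to 766) and *Sos1* (27.97 against 41.2 to 46.2). Control HF/HS replicate 2 was high for *Apoa1* (13047 against 11164 to 11884) and *Sos1* (55.2 against 41.8 to 46.7). KO chow replicate 2 was high for *Cideb* (225 against 203 to 211) and low for *Dock10* (1.95 against 2.65 to 2.84). KO chow replicate 4 was high for the clock gene *Ciart* (9.46 against 2.11 to 3.21), and control HF/HS replicate 7 for the stress response factor *Atf4* (143 against 88.2 to 108). The others were *Cd24a* in control HF/HS replicate 5 (2.38 against 1.62 to 1.87), *Gbp2* in KO HF/HS replicate 5 (3.98 against 5.35 to 6.36) and *Wnt9b* in control chow replicate 4 (0.678 against 1.23 to 1.83).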

How the results depend on the processing

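The count of 0 genes past the threshold held in each of 42 other settings, and the lowest adjusted p in any was 0.0691, with DESeq2. The genes with an unadjusted p under 0.05, 243 positive and 263 negative, became 497 and 456 with limma voom and library quality weights. The positive ones became 366 with no filter on low counts, 460 without KO chow replicate 1 and control HF/HS replicate 7, and 449 without KO chow replicate 4 and control HF/HS replicate 7, both pairs being left out after the data were seen. With single mice left out they ran from 176 to 422 positive and from 177 to 526 negative, the most without KO HF/HS replicate 5. The difference of *Pparg*, 0.03, was -0.13 and -0.063 without these pairs and ran from -0.067 to 0.13 with single mice left out, and that of *Saa2* was 1.40 without the second pair. List medians moved by more than the spread between mice for NRF2 targets (0.21 with quality weights), for markers of adipose and other tissues (0.43 with no filter), for peroxisome biogenesis (-0.086 without the first pair) and, without the second pair, for the acute phase (0.32), the clock (0.076) and zonation (0.044). Without the first pair the medians were also -0.19 for the clock, -0.26 for cholesterol synthesis, -0.08 for de novo lipogenesis and 0.09 for metallothioneins and metal handling, moves within the spread between mice. For the parts of the comparison, DESeq2 gave 4 higher and 2 lower genes on chow and 26 and 34 on HF/HS. A fit of only the mice of that diet gave 1 higher gene on HF/HS, and one of only HGFAC-KO mice gave 371 lower with diet. The causes were not tested.

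The replicate numbers of the labels did not pair the mice, since correlations of same-numbered deviations from the group means ran from -0.25 to 0.37. With the replicate number as a block 0 genes were past the threshold, and 261 and 213 had an unadjusted p under 0.05. Most cell cycle genes with a p under 0.05 were at low levels, and 27 mice in 4 groups leave a median half-width of 0.28 on the log2 scale for the difference of a gene.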

Other observations

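Markers of bile duct and red cells are given as sums per mouse, with no test between genotypes. The 4 cholangiocyte markers *Krt7*, *Krt19*, *Epcam* and *Sox9*, genes of the cells that line bile ducts, summed to 14.2 to 32.4 CPM (median 20.6) in chow-fed controls and 25.7 to 37.2 CPM (median 31.6) in chow-fed HGFAC-KO mice, and to 11.7 to 25.7 CPM (median 18.9) and 20.4 to 40.5 CPM (median 28.1) on HF/HS, with 3 of 6 HGFAC-KO mice above all controls on chow and 6 of 7 on HF/HS. Of these markers 2 had a positive and 2 a negative interaction, and 0 had a p under 0.05. *Sox9* made up most of the sum. Scaled by library totals only, its medians were 17.4 (controls) and 27.4 CPM (HGFAC-KO) on chow and 16.0 and 24.2 CPM on HF/HS. The others did not all share that shift. *Krt7* had medians of 0.68 and 0.65 on chow and 0.68 and 0.57 on HF/HS. *Krt19* had 1.63 and 1.48, then 1.27 and 1.44, and *Epcam* 1.03 and 1.22, then 1.12 and 1.00. The 3 red cell markers summed to 178 to 343 CPM (median 224) and 168 to 280.2 CPM (median 229) on chow, and to 121 to 242 CPM (median 182) and 126 to 393 CPM (median 159) on HF/HS, where the ranges overlapped. The part of these cells in the results was not tested.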
